A study of Mus musculus with 8 samples.

Results

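The 10 genes described here encode the NF-kB transcription factor subunits and their inhibitor or inhibitor-like proteins. Their RNA was measured by sequencing in mouse Th1 cells, the T helper cells that make interferon gamma. The genes were chosen by name as a gene family, not by a measured value, though with earlier results of these data known. They are 10 of the 14454 genes that could be assigned to exactly 1 line of the deposited per-library table. They comprise 5 subunits (Nfkb1, Nfkb2, Rel, Rela and Relb), 3 classical inhibitors (Nfkbia, Nfkbib and Nfkbie) and 2 nuclear inhibitor-like proteins (Nfkbid and Nfkbiz). All 10 passed the filter on low values in both experiments.

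All groups were CD4 T cells of C57BL/6 mice, activated in culture with plate-bound antibody to CD3 and antibody to CD28, and differentiated with an antibody that blocks IL-4 and with IL-12 (2 ng/ml). The knockdown experiment compared cells transduced with a hairpin against Pcbp1 (shPCBP1) with cells transduced with a scrambled hairpin (sh Scramble), using total RNA depleted of ribosomal RNA. The second experiment compared cells given CPX (ciclopirox olamine, an iron chelator) with cells given its solvent DMSO, using polyA RNA. Each of the 4 groups had 2 libraries, 8 in all. Dose and duration of CPX, time after transduction, hairpin sequences and any selection of transduced cells were not given in the sources used here. Whether replicates were separate cultures or animals is not said, so a p-value reflects only how these libraries spread, which may be technical.

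NF-kB proteins act as dimers that bind kappa B sites in DNA. In resting cells the classical inhibitors (I kappa B proteins) keep dimers such as that of the Rela and Nfkb1 products in the cytoplasm, and T cell receptor and CD28 signals activate the IKK kinase, which marks the inhibitors for destruction. In the alternative pathway the kinase encoded by Map3k14 triggers processing of the Nfkb2 precursor, which partners the Relb product. Nfkbid and Nfkbiz encode nuclear I kappa B proteins that modify transcription at NF-kB targets, and Nfkbia is itself a well-known NF-kB target, which makes it part of a negative feedback loop.

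Promoter sequence is shown for 5 genes. It sets the kappa B sites of inhibitor genes, Nfkbid and Rel beside a subunit gene with no such match. The RefSeq promoter table (GRCm38.p6) had entries for 7 of the 10 genes, with 11 start sites. It had none for Nfkb1, Relb and Nfkbiz. The 250 bases before each start were searched on both strands for GGGNNNNNCC and for the stricter kappa B consensus GGGRNNYYCC. There R is A or G, Y is C or T, and N is any base. Every match of the consensus is also a match of the first pattern. The stretches printed exclude annotated exons and run 5′ to 3′ on the gene's strand, with consensus matches in capitals. They are Nfkbia at chr12:55492648-55492897 (minus strand), Nfkbie at chr17:45555450-45555699 (plus), the second of the Nfkbid starts at chr7:30422156-30422405 (plus), Rel at chr11:23770971-23771219 (minus) and Rela at chr19:5637291-5637482 (plus).
Nfkbia: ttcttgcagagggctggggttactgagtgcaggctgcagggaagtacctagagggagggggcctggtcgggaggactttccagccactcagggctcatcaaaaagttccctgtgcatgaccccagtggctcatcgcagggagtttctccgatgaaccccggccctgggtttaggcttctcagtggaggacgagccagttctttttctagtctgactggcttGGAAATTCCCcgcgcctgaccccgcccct
Nfkbie: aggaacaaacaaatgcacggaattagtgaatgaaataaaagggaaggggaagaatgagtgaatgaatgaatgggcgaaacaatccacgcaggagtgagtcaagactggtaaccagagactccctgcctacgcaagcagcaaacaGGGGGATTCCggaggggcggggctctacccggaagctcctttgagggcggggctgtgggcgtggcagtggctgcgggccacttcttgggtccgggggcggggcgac
Nfkbid: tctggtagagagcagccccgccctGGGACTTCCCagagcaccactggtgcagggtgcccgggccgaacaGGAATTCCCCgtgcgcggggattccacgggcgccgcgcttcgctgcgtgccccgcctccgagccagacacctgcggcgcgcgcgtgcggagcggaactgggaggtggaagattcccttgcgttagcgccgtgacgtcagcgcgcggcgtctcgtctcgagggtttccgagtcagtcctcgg
Rel: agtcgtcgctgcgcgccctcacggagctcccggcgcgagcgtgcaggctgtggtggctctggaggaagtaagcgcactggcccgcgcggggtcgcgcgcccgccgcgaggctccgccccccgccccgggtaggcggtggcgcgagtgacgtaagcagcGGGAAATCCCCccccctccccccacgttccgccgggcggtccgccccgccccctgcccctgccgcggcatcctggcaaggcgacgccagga
Rela: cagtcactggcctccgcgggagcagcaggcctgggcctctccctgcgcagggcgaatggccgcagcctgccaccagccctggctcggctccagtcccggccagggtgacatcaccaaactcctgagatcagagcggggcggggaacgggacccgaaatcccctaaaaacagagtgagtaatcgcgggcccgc

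The Nfkbia match, GGAAATTCCC, lay 29 to 20 bases before the start, and the Nfkbie match, GGGGGATTCC, lay 106 to 97 bases before it. Nfkbid had GGGACTTCCC at 226 to 217 bases and GGAATTCCCC at 181 to 172 bases before its second start. In Rel the matches GGGAAATCCC and GGAAATCCCC overlapped and together spanned 92 to 82 bases before the start. Nfkb2, whose windows are largely exonic and are not printed, held GGGAATTCCC 39 to 30 bases before its first start, among other matches. The consensus was found in 7 of the 11 windows, against 7.25% of all 32851 promoter windows of that length. By gene, it was found in 5 of the 7, and not in Rela or Nfkbib. Nfkb2 and Nfkbid had 3 windows each, so the genes had more than 1 window to match in. Windows 2 and 3 of Nfkb2 overlap, and windows 1 and 3 of Nfkbid held 0 consensus matches. The looser pattern was found in 10 of the 11 windows, against 45.8% of all windows. A match describes these letters only.

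Library totals were 14174293 to 15518303 reads in the knockdown experiment and 19193784 to 19662145 units in the CPX experiment, whose deposited values are rescaled counts. The 10 genes had 589 to 24881 reads, or 363 to 52810 units, per library. RPM below is a gene's value divided by its library's total, times 1e+06. The correlation of replicates was 0.993 for the scrambled hairpin, 0.992 for the Pcbp1 hairpin, 0.985 for DMSO and 0.954 for CPX, across genes, which are not independent. Pcbp1 itself was at 44.0 and 51.7 RPM with the scrambled hairpin and at 15.1 and 16.1 RPM with the Pcbp1 hairpin, 3.31-fold lower (log2 fold change -1.73 ± 0.12 SE, edgeR adjusted p = 3.18e-05). All 8 T cell and Th1 markers examined, Ifng and Tbx21 among them, reached 1 RPM in both experiments. Their summed level, mostly Ifng, was 51042 and 41603 RPM with the scrambled hairpin and 25470 and 19643 RPM with the Pcbp1 hairpin. It was 14695 and 24865 RPM with DMSO against 1921 and 5579 RPM with CPX. These sums follow Ifng, and other markers moved either way. With the Pcbp1 hairpin Cd3e was at 79.1 and 82.9 RPM against 39.0 and 43.0 RPM. Cd3g was at 121 and 115 RPM against 201 and 206 RPM. With CPX Cd4 was at 405 and 261 RPM against 137 and 226 RPM. Cxcr3 was at 13.5 and 14.8 RPM against 98.5 and 65.9 RPM. Summed macrophage markers (Emr1 and Cd68, 2 of 6 measured) were at 1.12 and 3.02 RPM in DMSO libraries and 17.8 and 20.6 RPM in CPX libraries. Summed dendritic cell markers (Itgax, Flt3 and Zbtb46, 3 of 5 measured) were at 2.95 and 3.22 RPM in DMSO libraries and 22.8 and 26.0 RPM in CPX libraries, and Emr1 was at 0 in 1 DMSO library. Summed B cell markers (Cd79a and Cd79b, 2 of 5 measured) were at 0.661 and 0.512 RPM against 2.29 and 2.7 RPM, and the fibroblast gene Col1a1 (1 of 5 measured) was at 0.203 and 0.46 RPM against 4.32 and 3.12 RPM. Within the dendritic cell sum Flt3 stayed low, at 0.102 and 0.153 RPM with DMSO against 0.521 and 0.104 RPM with CPX. Genes not measured had no line with a value of at least 10 matched to them alone, and may have been near absent. Whether such cells were present, and their part in the CPX results below, was not tested. The sum of the CD8 T and NK cell markers measured (Cd8a, Cd8b1 and Klrd1, 3 of 5) differed between replicates rather than groups in the knockdown experiment, at 143 and 136 RPM in replicate 1 of the scrambled and Pcbp1 hairpin groups and at 44.3 and 43.1 RPM in replicate 2. In bulk RNA, fewer cells of a type and less RNA per cell cannot be told apart.

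With the Pcbp1 hairpin, transcripts of both parts of the classical dimer, Nfkb1 and Rela, rose about 2-fold. Those of the inhibitor Nfkbib and of the nuclear inhibitor-like Nfkbid rose less, and those of the inhibitor Nfkbie fell. Of the 10 genes, 4 rose and 1 fell at an adjusted p under 0.05 (edgeR's quasi-likelihood test, adjusted by Benjamini-Hochberg over 11574 genes), and 5 were not called. Over all genes tested, 29.3% were called higher and 26.7% lower, 56.0% in all, so 5 of 10 is close to the background. The median log2 fold change was 0.08 over the 10 genes and 0.00 over all genes. The deposited table of the authors called the same 5 genes.

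Nfkb1, which encodes the precursor of the DNA-binding partner of Rela, was at 668 and 768 RPM with the scrambled hairpin and at 1583 and 1740 RPM with the Pcbp1 hairpin. Both hairpin libraries were above both scrambled libraries, with no overlap. The rise was 2.15-fold (log2 fold change 1.10 ± 0.10 SE, edgeR adjusted p = 9.2e-05). Rela, the main activating subunit of the classical pathway, was at 59.3 and 59.6 RPM with the scrambled hairpin and at 140 and 139 RPM with the Pcbp1 hairpin. Replicates of Rela were nearly equal and the groups stood well apart. It rose 2.18-fold (log2 fold change 1.12 ± 0.06 SE, edgeR adjusted p = 1.55e-05). With transcript length and GC content taken out, both rises were still called but were under 2-fold. The log2 fold change was then 0.77 for Nfkb1 (edgeR adjusted p = 0.000421) and 0.89 for Rela (edgeR adjusted p = 2.44e-05). Folds here carry edgeR's TMM scaling, which the RPM values do not, so their ratios differ slightly.

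The other subunits did not pass the test. Nfkb2, the alternative-pathway precursor, was at 288 and 275 RPM with the scrambled hairpin and at 296 and 257 RPM with the Pcbp1 hairpin, and the groups overlapped (log2 fold change -0.14 ± 0.08 SE, edgeR adjusted p = 0.17). It was called lower without replicate 1 of the Pcbp1 hairpin (-0.23, edgeR adjusted p = 0.0463) and with transcript length and GC content taken out (-0.53, edgeR adjusted p = 0.000527). Its exons overlap Psd and AC114539.1 on the opposite strand, and whether counting used strand is not given in the sources used here. Rel, a subunit enriched in lymphocytes, was at 73.9 and 65.0 RPM against 82.5 and 74.1 RPM, where the hairpin libraries were higher by less than the scrambled libraries differed from each other (log2 fold change 0.07 ± 0.09 SE, edgeR adjusted p = 0.541). Relb was at 56.5 and 59.0 RPM against 60.9 and 58.4 RPM, and its groups overlapped (log2 fold change -0.06 ± 0.07 SE, edgeR adjusted p = 0.513).

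Among the classical inhibitors, Nfkbib was at 45.9 and 51.2 RPM with the scrambled hairpin and at 92.5 and 72.4 RPM with the Pcbp1 hairpin. The hairpin libraries were both higher but differed from each other more than the scrambled ones did. It rose 1.58-fold (log2 fold change 0.66 ± 0.12 SE, edgeR adjusted p = 0.00253). Its exons overlap Ccer2 on the opposite strand. Nfkbie was at 61.2 RPM in both scrambled libraries and at 48.7 and 41.2 RPM with the Pcbp1 hairpin, and the groups did not overlap. It was 1.47-fold lower (log2 fold change -0.55 ± 0.09 SE, edgeR adjusted p = 0.00181). In 1 limma fit of all 8 libraries, the calls of Nfkbib (limma adjusted p = 0.0726) and Nfkbie (limma adjusted p = 0.0761) were lost. Nfkbia, the best-known classical inhibitor, was at 241 and 250 RPM against 253 and 230 RPM, with overlapping groups (log2 fold change -0.13 ± 0.07 SE, edgeR adjusted p = 0.136).

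Of the nuclear inhibitor-like genes, Nfkbid was at 220 and 258 RPM with the scrambled hairpin and at 384 and 325 RPM with the Pcbp1 hairpin. Both hairpin libraries were the higher ones. The rise was 1.38-fold (log2 fold change 0.46 ± 0.10 SE, edgeR adjusted p = 0.00694). Nfkbiz was at 74.2 and 65.6 RPM against 88.5 and 72.4 RPM, and the groups overlapped (log2 fold change 0.10 ± 0.10 SE, edgeR adjusted p = 0.461). The groups did not overlap for 6 of the 10 genes, against 78.5% of all genes tested.

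**Figure D1:**
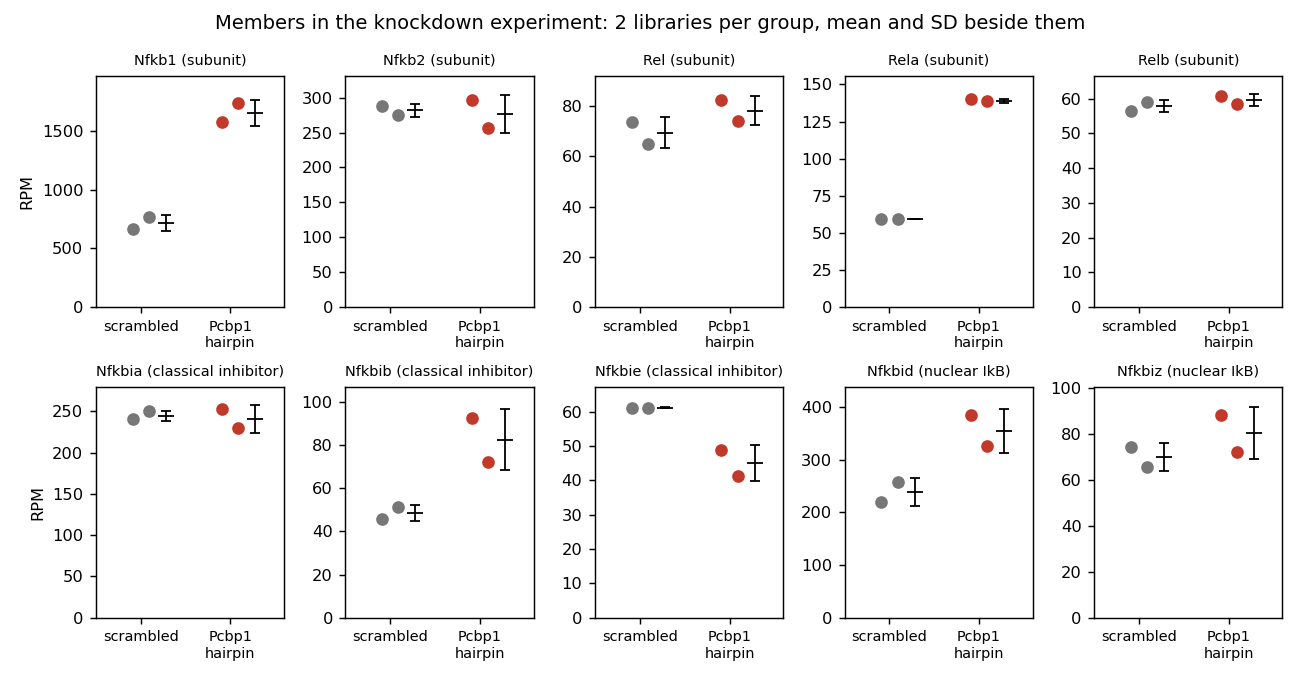
RPM of the 10 genes in the knockdown experiment, with points for the 2 libraries of each group and bars for their mean and SD, each panel on its own linear axis from 0. The hairpin libraries of Nfkb1 (1583 and 1740 RPM) and Rela (140 and 139 RPM) stand above the scrambled ones, while those of Nfkbie (48.7 and 41.2 RPM) stand below.

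With CPX, transcripts of the inhibitors Nfkbia and Nfkbie and of the subunit Nfkb2 fell, and those of Relb rose. Of the 10 genes, 1 was called higher and 3 lower (limma on log2(RPM + 0.5), adjusted over 11465 genes), and 6 were not called. The background was 19.9% of all genes higher and 24.8% lower, 44.7% in all, again close to the 4 of 10 seen here. The median log2 fold change was -0.12 both over the 10 genes and over all genes. The groups did not overlap for 8 of the 10 genes, against 76.3% of all genes tested. The deposited table of the authors called the same 4 genes. In the 2 CPX libraries 1773 genes differed by more than 2-fold between replicates, against 524 in the DMSO libraries.

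Nfkbia was at 380 and 373 RPM in DMSO libraries and 106 and 153 RPM in CPX libraries. The DMSO libraries were close together and both CPX libraries were far below them. It was 2.94-fold lower (log2 fold change -1.56 ± 0.24 SE, limma adjusted p = 0.0061). Nfkbie was at 71.6 and 83.1 RPM in DMSO libraries and 20.9 and 18.9 RPM in CPX libraries, with no overlap. At 3.81-fold lower (log2 fold change -1.93 ± 0.25 SE, limma adjusted p = 0.0039), it changed the most of the 10 genes in either experiment. Nfkbib was at 254 and 237 RPM in DMSO libraries and 341 and 196 RPM in CPX libraries. The CPX libraries lay on either side of the DMSO ones (log2 fold change 0.07 ± 0.30 SE, limma adjusted p = 0.859).

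Relb was at 118 and 122 RPM in DMSO libraries and 261 and 231 RPM in CPX libraries, and the groups stood apart. It rose 2.05-fold (log2 fold change 1.03 ± 0.20 SE, limma adjusted p = 0.0104). Its partner gene Nfkb2 was at 647 and 718 RPM in DMSO libraries and 402 and 393 RPM in CPX libraries, again without overlap. Nfkb2 was 1.72-fold lower (log2 fold change -0.78 ± 0.18 SE, limma adjusted p = 0.0194). Both calls were lost when either DMSO library was left out: the limma adjusted p became 0.118 and 0.101 for Relb, and 0.146 and 0.211 for Nfkb2, without DMSO replicates 1 and 2 in turn.

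The classical dimer genes were not called. Nfkb1 was at 2686 and 2266 RPM in DMSO libraries and 2067 and 1916 RPM in CPX libraries. Both CPX libraries were lower, but the gap to the nearer DMSO library was smaller than that between the DMSO libraries (log2 fold change -0.31 ± 0.19 SE, limma adjusted p = 0.236). Rela was at 329 and 307 RPM against 325 and 542 RPM, so that 1 CPX library fell within the DMSO range and the other far above it (log2 fold change 0.40 ± 0.28 SE, limma adjusted p = 0.293). Without CPX replicate 1, Rela was called higher (0.77, limma adjusted p = 0.0305), and without CPX replicate 2 its log2 fold change was 0.03 (limma adjusted p = 0.844). Rel was at 212 and 163 RPM against 348 and 229 RPM, and both CPX libraries were higher, though widely spread (log2 fold change 0.60 ± 0.28 SE, limma adjusted p = 0.133).

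The nuclear inhibitor-like genes lay just outside the threshold, in opposite directions. Nfkbid was at 928 and 809 RPM in DMSO libraries and 581 and 588 RPM in CPX libraries, with the groups well apart (log2 fold change -0.57 ± 0.18 SE, limma adjusted p = 0.0522). Nfkbiz was at 86.4 and 97.7 RPM in DMSO libraries and 130 and 166 RPM in CPX libraries, also without overlap (log2 fold change 0.68 ± 0.23 SE, limma adjusted p = 0.0581). Several other settings called them. Both were called with quantile normalization (limma adjusted p = 0.0214 for Nfkbid and 0.0246 for Nfkbiz). Both were also called in the fit of all 8 libraries (limma adjusted p = 0.012 and 0.013). Nfkbid was called with length and GC content taken out (limma adjusted p = 0.0441), and Nfkbiz with TMM scaling (limma adjusted p = 0.0283). Without CPX replicate 1 the log2 fold change of Nfkbiz was 0.85. With TMM scaling Nfkbid was at -0.44 (limma adjusted p = 0.169).

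**Figure D2:**
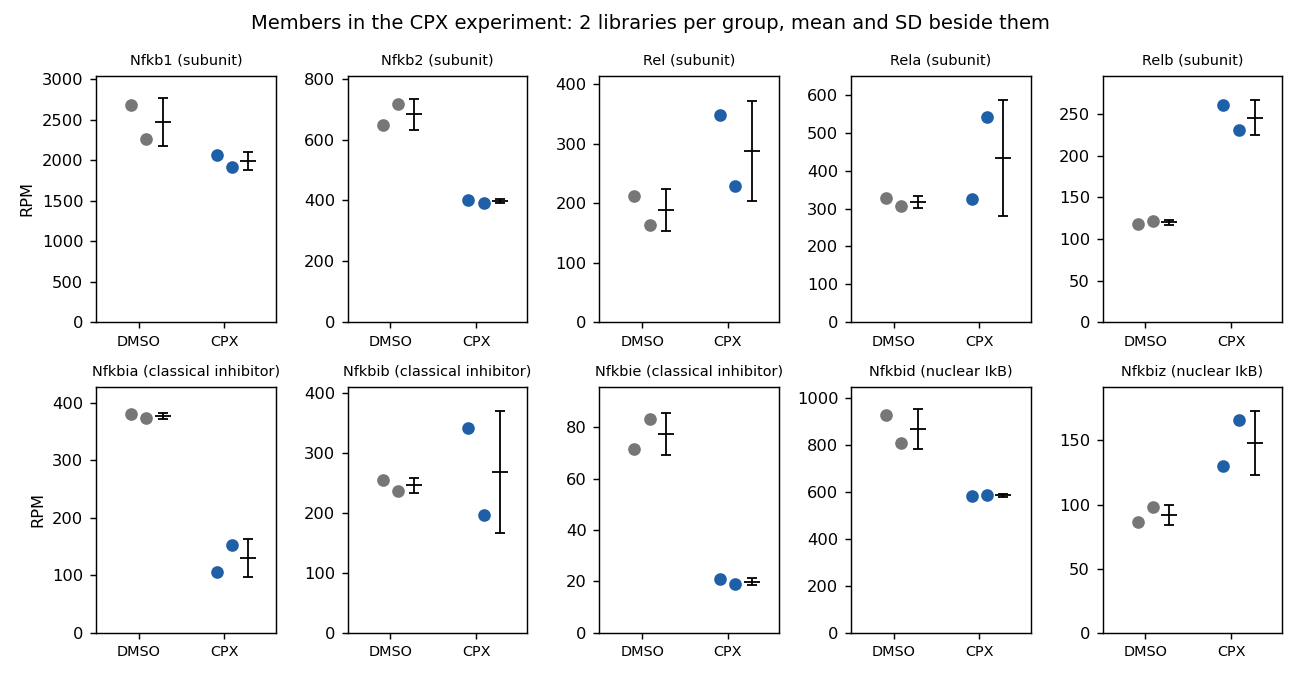
RPM of the 10 genes in the CPX experiment, with points for the 2 libraries of each group and bars for their mean and SD, each panel on its own linear axis from 0. The CPX libraries of Nfkbia (106 and 153 RPM) and Nfkbie (20.9 and 18.9 RPM) lie far below the DMSO ones, and the 2 CPX libraries of Rela and Nfkbib differ widely.

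The 2 experiments share no library, so their effects could be set against each other in 1 limma fit of all 8 libraries. The difference is also one between experiments and between RNA selections, which cannot be told apart from the treatments. Of the 10 genes, 6 differed in effect, 5 with the higher value for the hairpin and 1 with the higher value for CPX, against 51.3% of 10429 genes in all, 35.2% and 16.1% by direction. The median difference was 0.79 over the 10 genes and 0.40 over all genes. With TMM scaling the median over all genes was 0.18.

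Nfkb1, with hairpin and CPX effects of 1.21 and -0.31 in that fit, which has no TMM scaling, differed by 1.52 ± 0.20 SE (limma adjusted p = 0.000903). Nfkbia differed by 1.53 ± 0.25 SE (limma adjusted p = 0.0022) and Nfkbie by 1.49 ± 0.22 SE (limma adjusted p = 0.00146), although Nfkbie was lower in both experiments. Nfkbid differed by 1.14 ± 0.20 SE (limma adjusted p = 0.00333). Those 4 genes stood furthest above the median of 0.40. Rela (0.82), Nfkb2 (0.75) and Nfkbib (0.68) were above it as well. Relb differed the other way, by -0.99 ± 0.17 SE (limma adjusted p = 0.00299). The difference for Nfkb2 was 0.75 ± 0.17 SE (limma adjusted p = 0.00973) and was lost with TMM scaling (0.51, limma adjusted p = 0.0518), without scrambled replicate 2 (limma adjusted p = 0.0508) and without Pcbp1 hairpin replicate 1 (limma adjusted p = 0.0534). Rela (0.82 ± 0.31 SE, limma adjusted p = 0.0615) was not called. It was called without CPX replicate 1 (0.46, limma adjusted p = 0.0106, where the median over all genes was 0.32) and without CPX replicate 2 (1.19, limma adjusted p = 0.000157). Rel, Nfkbib and Nfkbiz were not called (limma adjusted p = 0.294, 0.159 and 0.147), although Nfkbib (limma adjusted p = 0.00426) and Nfkbiz (limma adjusted p = 0.0279) were without CPX replicate 1, and Rel was without CPX replicate 2 (limma adjusted p = 0.0278). Only Nfkbie was called in both experiments, 1 gene of 10 against 25.0% of genes tested in both, and no gene was called in opposite directions. A further 4 were called with the hairpin alone, 3 with CPX alone, and Rel and Nfkbiz in neither.

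**Figure D3:**
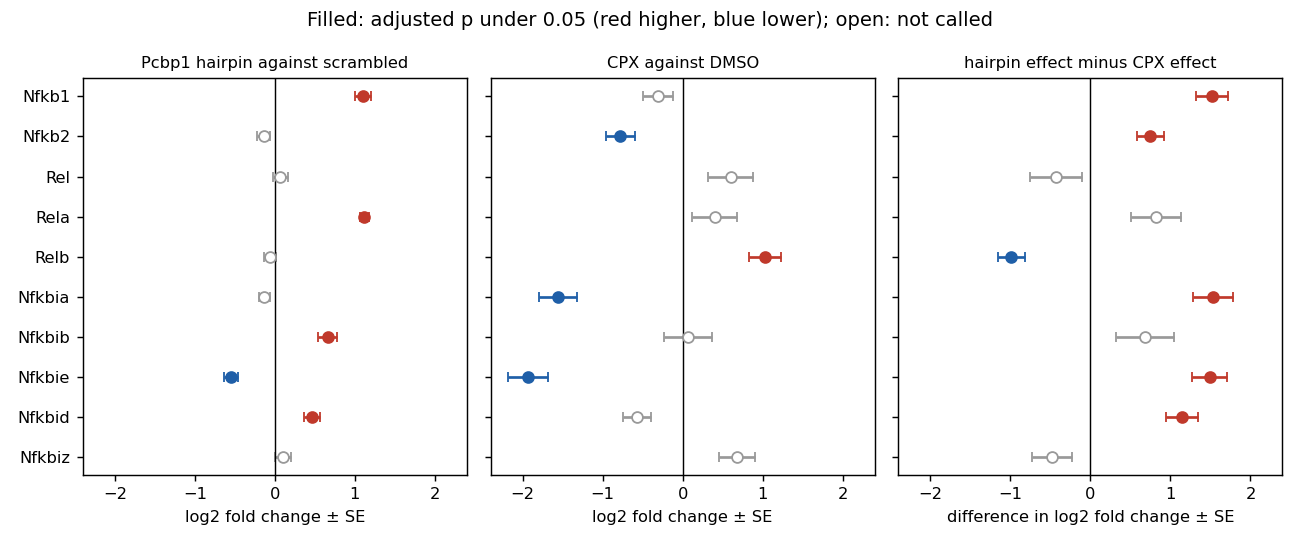
Log2 fold change of each gene with its SE for the Pcbp1 hairpin, for CPX and for the hairpin effect minus the CPX effect. Filled points passed an adjusted p of 0.05, with Nfkb1 and Rela to the right in the first panel, and Nfkbia and Nfkbie to the left in the second.

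Levels of different genes were compared as RPM per kilobase of the longest coding transcript, within a group. Nfkb1 was first in all 4 groups, at 174 ± 17.2 (SD, n = 2) RPM per kilobase with the scrambled hairpin, 404 ± 27.0 with the Pcbp1 hairpin, 601 ± 72.2 with DMSO and 484 ± 25.9 with CPX. With the scrambled hairpin it was followed by Nfkbia at 156, Nfkbid at 117 and Nfkb2 at 73.3, while Rel was last at 9.31. The libraries of neighbours in that order did not overlap, but Relb, Nfkbie, Nfkbib and Rela lay close together at 26.1, 25.1, 23.6 and 21.9, and the gaps on either side of Nfkbib were smaller than its SD of 1.80. With the Pcbp1 hairpin Nfkbid (174) and Nfkbia (153) overlapped, Nfkbiz (19.6) and Nfkbie (18.5) overlapped too, and Rel was again last.

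With DMSO the order was Nfkb1, Nfkbid at 426, Nfkbia at 239 and Nfkb2 at 178 RPM per kilobase. Nfkbib and Rela overlapped at 119 and 117, and so did Rel and Nfkbiz at 25.1 and 22.4. With CPX Nfkbia stood seventh at 82.3 RPM per kilobase, below Rela at 160, Nfkbib at 130 and Relb at 111, and Nfkbie was last at 8.16. Rela, Nfkbib and Relb overlapped as neighbours there, and Relb and Nfkb2 (103) differed by less than the SD of Relb (9.36). Using the median coding transcript length changed places in the middle of the order, chiefly by moving Nfkbib up, and left Nfkb1 first in all 4 groups.

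A ratio of genes within a library does not depend on the scaling of that library. The ratio of Nfkbia to Rela, per length, was 7.01 and 7.22 with the scrambled hairpin and 3.11 and 2.85 with the Pcbp1 hairpin, 2.39 times lower. In the other experiment it was 1.99 and 2.09 with DMSO and 0.563 and 0.486 with CPX, 3.88 times lower. So Nfkbia was lower relative to Rela in every treated library than in either of its controls. In the knockdown experiment Rela was the gene of the pair that was called, and in the CPX experiment it was Nfkbia. The ratio of Nfkbia to Nfkb1 was 0.942 and 0.849 against 0.418 and 0.344 for the hairpins, and 0.369 and 0.429 against 0.134 and 0.209 for DMSO and CPX.

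The ratio of Nfkb1 to Rela was 7.43 and 8.51 with the scrambled hairpin and 7.44 and 8.28 with the Pcbp1 hairpin, with the ranges overlapping. It was 5.38 and 4.86 with DMSO and 4.19 and 2.33 with CPX. The ratio of Nfkb2 to Relb was 2.93 and 2.68 against 2.79 and 2.53 for the hairpins, overlapping, and 3.16 and 3.39 against 0.886 and 0.975 for DMSO and CPX, 3.52 times lower. Relb thus exceeded Nfkb2 per length in both CPX libraries and in no other library. With the median coding transcript as length that order did not hold, since Nfkb2 was at 126 and Relb at 112 RPM per kilobase with CPX. These ratios carry no test.

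As a share of the summed subunit level per length, Nfkb1 was 55.1% and 59.1% with the scrambled hairpin and 69.7% and 73.3% with the Pcbp1 hairpin. Its share was 63.7% and 59.4% with DMSO and 56.4% and 51.6% with CPX. Relb held 5.21% and 5.95% with DMSO and 13.2% and 11.6% with CPX. The summed inhibitor level per length here covers the classical inhibitors and also Nfkbid and Nfkbiz. Of it, Nfkbia was 46.9% and 45.1% with the scrambled hairpin and 36.9% and 38.8% with the Pcbp1 hairpin. Nfkbia was 27.7% and 29.3% with DMSO and 12.1% and 18.4% with CPX. Its share was thus lower in both treated groups than in their controls, with no overlap. Nfkbid held the largest inhibitor share in 6 of the 8 libraries, from 42.6% to 54.6%, and less than Nfkbia in the 2 scrambled libraries.

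**Figure D4:**
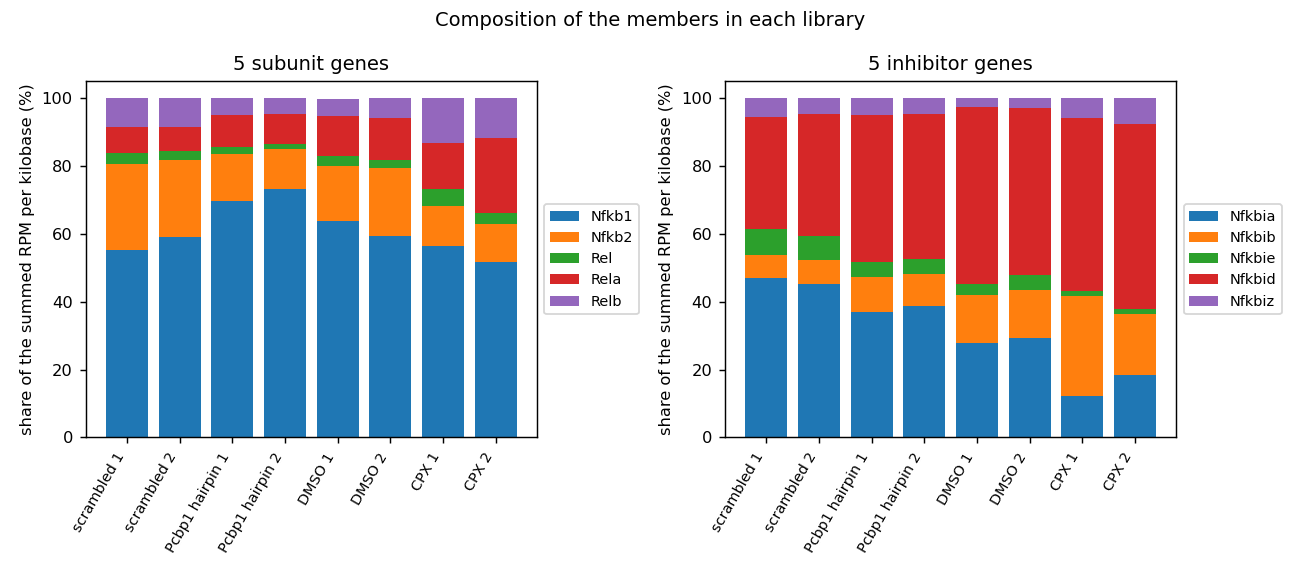
Share of each gene in the summed RPM per kilobase, as stacked bars of 8 libraries. The bars cover the 5 subunit genes and the 5 inhibitor genes, which here include Nfkbid and Nfkbiz. Nfkb1 takes the largest part of the subunit bar in each library, and the Nfkbia part of the inhibitor bar is smallest with CPX (12.1% and 18.4%).

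The rest of the pathway was read from lists of genes by role, which share some members. The lists too were chosen with earlier results of these data known. Their counts stand beside 29.3% of all genes called higher and 26.7% lower with the hairpin, and 19.9% higher and 24.8% lower with CPX. Other settings changed the calls over all genes too. The limma fit of all 8 libraries called 1927 genes higher and 692 lower with the hairpin, against 3395 and 3085 in the main test. Without either DMSO library, fewer of all genes were called with CPX. Among 13 genes from the T cell receptor and CD28 to IKK, 7 were called higher and 5 lower with the Pcbp1 hairpin (edgeR), with a median log2 fold change of 0.38 against 0.00 over all genes. Without scrambled replicate 2, 3 were lower. Ikbkb, an IKK subunit, rose (log2 fold change 0.56, edgeR adjusted p = 0.000476), and Cd28, the costimulatory receptor, fell by 0.80 on the log2 scale (edgeR adjusted p = 6.49e-05). In the limma fit of all 8 libraries Cd28 was not called (-0.69, limma adjusted p = 0.385), and 4 genes of the list were higher and 0 lower. With CPX, 2 were called higher and 2 lower (limma), including the adaptor Bcl10, which rose (1.80, limma adjusted p = 0.00353). Without either DMSO library, 1 was called higher and 0 lower.

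Among 6 genes of alternative-pathway control, 5 were called higher (29.3% of all genes) and 1 lower (26.7%) with the hairpin (median 0.63). Traf3, an adaptor of the complex that degrades the Map3k14 kinase, rose (log2 fold change 2.33, edgeR adjusted p = 6.91e-06), and Birc2, a ubiquitin ligase, fell by 0.98 on the log2 scale (edgeR adjusted p = 7.85e-05). The call of Birc2 was lost in the limma fit of all 8 libraries (-0.87, limma adjusted p = 0.0637). With CPX, 1 was called higher and 1 lower, and 0 in either direction without DMSO replicate 1. Among 22 of 23 receptors and adaptors that were tested, 8 were higher and 6 lower with the hairpin, with the adaptor Myd88 up (2.29, edgeR adjusted p = 3.04e-05), and 2 were higher and 7 lower with CPX, with Traf1 down (-1.55, limma adjusted p = 0.00392). Without DMSO replicate 2, 0 receptors and adaptors were higher and 3 lower with CPX. Among 15 of 16 negative regulators, 5 were higher and 6 lower with the hairpin, and 2 higher and 4 lower with CPX, where 1 and 2 were called without either DMSO library. Tnfaip3, the deubiquitinase that is itself an NF-kB target, was not called with the hairpin (0.13, edgeR adjusted p = 0.355), and fell with CPX (-1.32, limma adjusted p = 0.00942), a call lost without DMSO replicate 2 (limma adjusted p = 0.0955). Without Pcbp1 hairpin replicate 2 it was called higher with the hairpin (0.26, edgeR adjusted p = 0.0474). Of 7 tested genes of the other I kappa B family and cofactors, 4 were higher and 1 lower with the hairpin (2 higher without Pcbp1 hairpin replicate 2), and 2 were higher and 2 lower with CPX. Among them Bcl3, a nuclear I kappa B protein, rose from 0.635 and 0.768 RPM to 3.16 and 2.03 RPM with the hairpin (1.77, edgeR adjusted p = 0.00449), a call lost in the limma fit of all 8 libraries (1.34, limma adjusted p = 0.132). Bcl3 was not called with CPX (0.75, limma adjusted p = 0.387).

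The lists of ligands and targets contained many genes lower with CPX. Among 12 of 13 tested ligands, 10 were called lower and 0 higher with CPX (limma), with a median log2 fold change of -2.71 against -0.12 over all genes. With the hairpin, 1 was higher and 5 lower (edgeR), with a median of -0.29. Of 28 target genes of T cells, 18 were lower and 3 higher with CPX (median -1.46), and 10 were lower and 7 higher with the hairpin (median -0.23). Over all genes, 24.8% were lower with CPX and 26.7% with the hairpin. With no filter on low values, 10 targets and 5 ligands were called lower with CPX. That setting called 2082 of all genes lower, against 2844 in the main test. In the limma fit of all 8 libraries, 3 targets and 0 ligands were called lower with the hairpin. That fit called 692 of all genes lower, against 3085 in the main test. The summed macrophage and dendritic cell markers given above were higher with CPX. The part of such cells, if present, in these counts was not tested.

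Il2, the T cell growth factor, was at 9014 and 8890 RPM with the scrambled hairpin and at 3555 and 3750 RPM with the Pcbp1 hairpin (log2 fold change -1.40, edgeR adjusted p = 3.14e-05). It was at 10023 and 4183 RPM in DMSO libraries and 182 and 226 RPM in CPX libraries (-4.99, limma adjusted p = 0.00241). Both treated groups lay below their controls. Tnf, the inflammatory cytokine, was at 873 and 970 RPM against 1029 and 868 RPM for the hairpins, overlapping (-0.07, edgeR adjusted p = 0.601), and at 1418 and 1198 RPM against 138 and 370 RPM for DMSO and CPX (-2.52, limma adjusted p = 0.00963), a call lost with no filter on low values (limma adjusted p = 0.0586). Csf2 was lower with the hairpin (-2.19, edgeR adjusted p = 1.27e-05), a call lost in the limma fit of all 8 libraries (-2.07, limma adjusted p = 0.198). With CPX it was called lower (-4.17, limma adjusted p = 0.0387), although the DMSO libraries differed widely at 1186 and 104 RPM. Other settings lost this CPX call: no filter on low values (limma adjusted p = 0.136) and quantile normalization (limma adjusted p = 0.056). The CPX call of Csf2 was lost without DMSO replicate 1 (limma adjusted p = 0.0758), without CPX replicate 1 (limma adjusted p = 0.11) and without CPX replicate 2 (limma adjusted p = 0.235). The growth regulator Myc fell with CPX (-4.78, limma adjusted p = 0.00241), and Sqstm1, an autophagy receptor, rose (3.02, limma adjusted p = 0.00241).

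**Figure D5:**
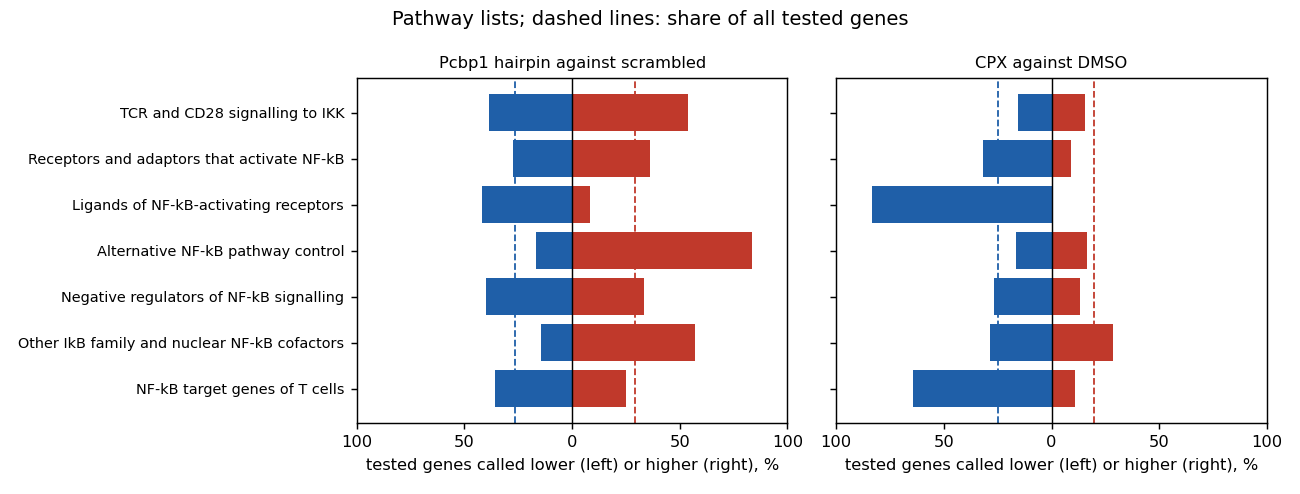
Percentage of the tested genes of each list called higher (right) or lower (left) with the Pcbp1 hairpin and with CPX, with dashed lines for the same share of all genes tested. The CPX bars of ligands (10 of 12 lower) and targets (18 of 28 lower) pass the dashed line of 24.8% the furthest. Receptors and adaptors (7 of 22), negative regulators (4 of 15) and the other I kappa B family and cofactors (2 of 7) pass it by less.

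Genes most like Nfkb1 were sought over the 8 libraries among 10429 genes, by the root mean square distance of log2(RPM + 0.5) after centring each gene within its experiment. The 3 nearest were Usp24 (0.0687), Wwp2 (0.0811) and Rab11b (0.0975). For Nfkbia they were 5430417L22Rik (0.0492), Rrn3 (0.0617) and Lins (0.0633). These distances describe likeness of pattern only.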

How the data were processed

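RNA was sequenced in 8 libraries, 4 in the knockdown experiment and 4 in the CPX experiment. Genome build mm9 and the tools STAR, HTSeq, cutadapt and DESeq are named in the submitters' processing notes. The authors' per-library table, named RPM in its title, holds raw counts per gene for the knockdown. For CPX the deposited values are taken as a score: rescaled and rounded counts, so a count model was not used there. The weights of its 4 libraries, fitted to the authors' mean signal, summed to 1.97. Per the file headers, the authors' DESeq2 tables hold a mean signal, log2 fold changes with standard errors, p-values (raw and adjusted) and a Wald score.

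In the per-library table, row labels were displaced after 1 constant line of value 23487630. Of 14805 lines with a value of at least 10, 14454 fitted the mean signals of exactly 1 gene in both of the authors' tables (tolerance 2e-09 relative in the knockdown, 1.2 absolute in CPX), 350 matched several genes and 1 matched none. Before the constant line 7207 of 7207 carried their own label, and after it 7246 of 7247 carried another gene's. All 10 members were matched.

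RPM was computed from library totals without that line. Genes with at least 1 RPM in 2 of an experiment's 4 libraries were tested, with a call at an adjusted p (Benjamini-Hochberg) under 0.05. The knockdown used edgeR 4.0.16 (quasi-likelihood test, TMM scaling), and CPX and the difference of effects used limma 3.58.1 with trend on log2(RPM + 0.5), in R 4.3.3. edgeR's SE was worked back from its F statistic, so it is not the same quantity as limma's. Scripts were tested on simulated data. Alternatives were other scalings, filters and pseudocounts, DESeq2 1.42.0, a replicate block, and each library left out. Correction for transcript length and GC content and limma with TMM were chosen after seeing the data. Lengths came from GENCODE coding transcripts on GRCm38, and no coordinates were converted. Named genes are the 10 members, the called list genes with the smallest p (at most 3 a direction, of which some are printed), Il2, Csf2, Tnf, Tnfaip3, Bcl3 and Pcbp1, and the 3 genes nearest to Nfkb1 and to Nfkbia. The members and lists were chosen with earlier results of these data known.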

Additional observations from a re-analysis of the deposited data

How the results depend on the processing

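Leaving out each library in turn gave 1 to 2 genes of the 10 called lower with the Pcbp1 hairpin, 0 to 3 called higher with CPX (0 without either DMSO library, 3 without CPX replicate 1), and 1 to 2 with a lower hairpin than CPX effect. In 1 limma fit of all 8 libraries, 0 were lower with the hairpin and 2 higher with CPX. In that fit Nfkbib also lost its call with the hairpin (0.75, limma adjusted p = 0.0726). Nfkbid was there called lower with CPX (-0.57, limma adjusted p = 0.012). Taking out length and GC content gave 2 lower with the hairpin, and TMM scaling and quantile normalization each gave 2 higher with CPX. TMM scaling gave 2 with a lower hairpin than CPX effect. Changes of sign were limited to uncalled values. With a library left out, hairpin log2 fold changes spanned -0.02 to 0.16 for Rel, -0.04 to 0.20 for Nfkbiz, -0.18 to 0.02 for Tnf and -0.04 to 0.26 for Tnfaip3, and CPX values spanned -0.33 to 0.47 for Nfkbib and -0.22 to 1.72 for Bcl3. With length and GC content taken out they were -0.01 for Rel, -0.18 for Nfkbiz, 0.04 for Tnf, -0.17 for Tnfaip3 and, with CPX, -0.03 for Nfkbib. Relb was at 0.05 and Tnf at 0.04 with the hairpin, both in the limma fit of all 8 libraries and in limma on log2(RPM + 0.5). The cause was not tested. Over all genes, that fit of all 8 libraries called 1927 higher and 692 lower with the hairpin, against 3395 and 3085 otherwise. Without DMSO replicate 1, CPX calls were 1080 higher and 1015 lower, and without DMSO replicate 2 they were 1337 and 1014, against 2279 and 2844, and the lower side of the difference was 1057 to 1177 without any 1 library of the knockdown experiment, against 1674. TMM scaling moved the median CPX log2 fold change of all genes from -0.12 to 0.00.

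Replicate numbers are shared between groups, but the labels do not say that they pair samples. Same-numbered libraries deviated together at a correlation of 0.289 in the knockdown and 0.101 in CPX over 2 pairs each. The main fits did not take them as pairs. In the knockdown experiment Cd8a did follow the replicate number. It was at 63.8 and 67.1 RPM in replicate 1 of the scrambled and Pcbp1 hairpin groups, and at 6.49 and 6.92 RPM in replicate 2. Whether same-numbered libraries came from a shared cell preparation was not tested. A replicate block gave 4 genes higher and 1 lower with the hairpin, 1 higher and 4 lower with CPX (Nfkbid joined, limma adjusted p = 0.036), and 5 and 1 in the difference. Over all genes it gave 3786 higher and 3561 lower calls with the hairpin and 2565 and 3086 with CPX.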

Other observations

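Among the 10 genes, the pairs most alike over the 8 libraries, by the same distance used for Nfkb1 and Nfkbia, were Relb and Nfkbiz (0.209), Rel and Relb (0.23), Nfkb2 and Nfkbid (0.253), Nfkb1 and Nfkbid (0.265) and Nfkbia and Nfkbie (0.268). Pcbp1 was also lower with CPX, at 506 and 538 RPM with DMSO against 238 and 199 RPM (limma adjusted p = 0.00614), and the call was lost without DMSO replicate 1 (limma adjusted p = 0.058) or DMSO replicate 2 (limma adjusted p = 0.0647).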
